A study of Mus musculus with 82 samples.

Results

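The proteasome genes of mouse were taken as the protein-coding genes of the GRCm38 RefSeq annotation whose symbols begin with Psma, Psmb, Psmc, Psmd, Psme, Psmf or Psmg followed by a number. There were 48 of them among 21000 protein-coding genes. By subunit they comprised 7 alpha and 7 beta subunits of the 20S core, 5 inducible or tissue-restricted 20S subunits, 6 ATPases and 11 non-ATPases of the 19S particle, 5 activators or inhibitors and 7 assembly factors. Nascent RNA was measured in V6.5 mouse embryonic stem (ES) cells, which carried no transgene or deletion in the labels and were grown on gelatin in serum medium with leukaemia inhibitory factor, with no treatment in any group. AGTuC (2 libraries, both from batch Exp125c) is a bulk run-on assay in which a strong ionic detergent opens the nuclei, and RNA that polymerases extend is tagged with a propargyl nucleotide and captured by click chemistry. In inAGTuC (4 libraries, of batches Exp208, Exp234 and Exp261) nuclei were run on with less of the detergent, so that their membrane held, and small pools of them were then barcoded in the wells of a plate. In scGRO-seq (35 plates of 10 batches, 2504 kept cells) intact nuclei were run on in the same way and each well then held 1 of them, with a barcode for the cell. Each deposited read stands for 1 captured molecule, counted by its unique molecular identifier (UMI), and the 3′ end of the RNA was taken as the position of a polymerase. This may not hold at the stacked positions described below. No label or method says that the 2 AGTuC libraries or the plates of a batch came from separate cultures, so p-values measure the spread between these samples, which may be technical. A level in bulk samples cannot tell fewer transcribing cells from fewer polymerases in each cell. All AGTuC libraries lie in a batch that held no other assay, so batch and assay cannot be told apart in any comparison with AGTuC.

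The proteasome degrades proteins that carry ubiquitin chains. Its barrel-shaped 20S core is made of stacked rings of alpha and beta subunits, and of the beta subunits Psmb5, Psmb6 and Psmb7 hold the proteolytic sites. The 19S particle caps the core, with ATPases (Psmc genes) that unfold substrates and non-ATPase subunits (most Psmd genes) that bind and strip ubiquitin. Psmb8, Psmb9 and Psmb10 replace the standard catalytic subunits in the immunoproteasome, which interferon induces, Psmb11 does so in the thymus and Psma8 is an alpha subunit of the testis. In most cell types the subunit genes are transcribed together as housekeeping genes, and the transcription factor Nfe2l1 raises them when proteasome activity falls.

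Promoter sequences are shown for genes at both ends of the range of promoter share described below. Each is the 250 bases before an annotated RefSeq start of GRCm38.p6, 5′ to 3′ on the strand of the gene. Capitals mark matches, on either strand, to the antioxidant response element core TGACNNNGC, the core of the site of ETS factors CGGAAG or the GC box GGGCGG. Psmb6, Psmd8 and Psmg1 had the highest promoter shares in AGTuC among genes with at least 50 UMIs there in the first 500 bp and the body, and Psma6 was among the lowest and has 2 annotated starts. No annotated exon lies in these windows.
Psmb6, chr11:70525107-70525356, plus strand: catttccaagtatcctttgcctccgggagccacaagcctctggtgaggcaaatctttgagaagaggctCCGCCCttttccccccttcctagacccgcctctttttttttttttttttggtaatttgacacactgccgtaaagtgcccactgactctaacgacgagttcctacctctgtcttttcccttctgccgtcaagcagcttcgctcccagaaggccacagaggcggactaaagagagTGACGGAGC
Psmd8, chr7:29180674-29180923, minus strand: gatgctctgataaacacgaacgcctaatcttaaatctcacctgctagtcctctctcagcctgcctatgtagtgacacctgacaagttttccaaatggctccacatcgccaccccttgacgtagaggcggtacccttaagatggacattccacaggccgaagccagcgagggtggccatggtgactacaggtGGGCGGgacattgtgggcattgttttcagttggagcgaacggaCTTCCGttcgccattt
Psmg1, chr16:95990961-95991210, minus strand: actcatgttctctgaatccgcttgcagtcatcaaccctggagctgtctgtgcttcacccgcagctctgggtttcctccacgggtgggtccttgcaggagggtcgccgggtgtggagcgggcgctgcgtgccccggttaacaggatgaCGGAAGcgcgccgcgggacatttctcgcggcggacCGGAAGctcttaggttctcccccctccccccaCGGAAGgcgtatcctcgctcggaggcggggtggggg
Psma6, first start, chr12:55383972-55384221, plus strand: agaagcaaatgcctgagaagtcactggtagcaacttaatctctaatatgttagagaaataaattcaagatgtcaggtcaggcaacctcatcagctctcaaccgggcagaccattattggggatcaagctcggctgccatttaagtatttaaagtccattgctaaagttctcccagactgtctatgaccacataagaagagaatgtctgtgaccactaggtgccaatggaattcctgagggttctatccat
Psma6, start 14.6 kb downstream, chr12:55398575-55398824, plus strand: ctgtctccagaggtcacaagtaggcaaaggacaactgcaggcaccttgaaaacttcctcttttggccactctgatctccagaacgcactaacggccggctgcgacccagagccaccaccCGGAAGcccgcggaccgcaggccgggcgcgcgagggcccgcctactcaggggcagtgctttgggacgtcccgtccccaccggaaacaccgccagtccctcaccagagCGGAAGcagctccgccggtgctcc

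The window before the first start of Psma6 held none of the 3 motifs, whereas that before its downstream start held the ETS core 2 times and that of Psmg1 held it 3 times. The window of Psmd8 held it 1 time and that of Psmb6 0 times. Psmc2, also among the lowest in promoter share, held it 1 time before each of its 2 annotated starts. A link between motifs and promoter share was not tested. The RefSeq promoter table, which gives 300 bases from 250 before to 50 after a start, had 43 promoters of 40 of the 48 proteasome genes. The ETS core CGGAAG stood in 53.5% of them, against 16.9% of all 32851 promoters, and the GC box GGGCGG in 55.8% against 35.7%. The antioxidant response element core, of the kind that Nfe2l1 and Nfe2l2 bind, stood in 6 of the 43, against 12.4% of all promoters, in Psmb5, Psmb6, Psmc6, Psmd12, Psmd9 and Psme4. The CCAAT box was in 32.6% against 37.4%, the TATA box TATAAA in 9.30% against 13.6% and the E-box CACGTG in 9.30% against 7.15%. The core of the nuclear respiratory factor 1 site GCATGCGC was in 6.98% against 2.71% and the YY1 core AAGATGGC in 6.98% against 2.75%, 3 promoters each. All 8 motifs were searched on both strands. Promoters of proteasome genes had 58.3% G and C against 53.8% in all promoters, and GC box and ETS core are themselves rich in G and C. A match is only a match of letters.

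The sequenced depth was 1054293 and 2180179 gene-body UMIs of protein-coding genes in the 2 AGTuC libraries, 241763 to 756568 in the inAGTuC libraries and 129730 to 2278693 in the scGRO-seq batches. Of 8 ES cell markers the median level was 21.4 in AGTuC, 7.00 in inAGTuC and 6.55 in scGRO-seq, with Dppa5a at 0 in the latter 2, and of 1107 olfactory receptor genes, which are silent outside sensory neurons, 1104, 1054 and 1010 were at 0. Levels are sense gene-body UMIs per kb and per 1000000 gene-body UMIs of all protein-coding genes, and the body leaves out 500 bp at each end of a gene. Among 4 fibroblast (feeder cell) markers the highest mean level was 0.773, 1.36 and 1.56, and their summed UMIs, scaled in the same way but not by length, were 5.69 to 8.26 in AGTuC, 10.6 to 38.7 in inAGTuC and 7.29 to 80.9 in scGRO-seq, with Col1a2 and Col3a1 at 0 in AGTuC. Lists of 4 markers each of trophectoderm, primitive endoderm, neural cells and mesoderm had medians between 0.0383 and 1.52 in the 3 assays. Single markers were higher in AGTuC, where the neural marker Sox1 had a level of 24.5 (2.63 in inAGTuC and 2.37 in scGRO-seq) and the trophectoderm marker Tfap2c 9.59 (3.81 and 2.60). The part of other cells in the results was not tested. The third inAGTuC library stood apart, with 96.0 antisense UMIs per 100 sense UMIs on the proteasome genes against 11.6 to 27.3 in the other inAGTuC libraries. Batch Exp260b stood apart as well, since 28.2% of its UMIs on proteasome genes lay at stacked positions, single bases described below, against 0.744% to 10.3% in the other batches. Results that rest on either are also given without it. The kept cells carried 254 distinct barcodes, of which 225 occurred in more than 1 of the 35 plates, so a cell was identified by plate and barcode, and molecules found in more than 1 library were left out.

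Proteasome genes as a group were transcribed above the typical gene in all assays. Their bodies held 8659 UMIs in AGTuC, 3910 in inAGTuC and 11198 in scGRO-seq, or 0.265% ± 0.011 (SD, n = 2), 0.208% ± 0.032 (n = 4) and 0.212% ± 0.036 (n = 10 batches) of all gene-body UMIs of protein-coding genes. The median level of the 48 genes was 3.65 in AGTuC, 2.41 in inAGTuC and 2.51 in scGRO-seq, against 0.831, 0.937 and 0.806 over all protein-coding genes. In AGTuC 44 of 48 proteasome genes lay above that median, in inAGTuC 40 and in scGRO-seq 43.

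**Figure D1:**
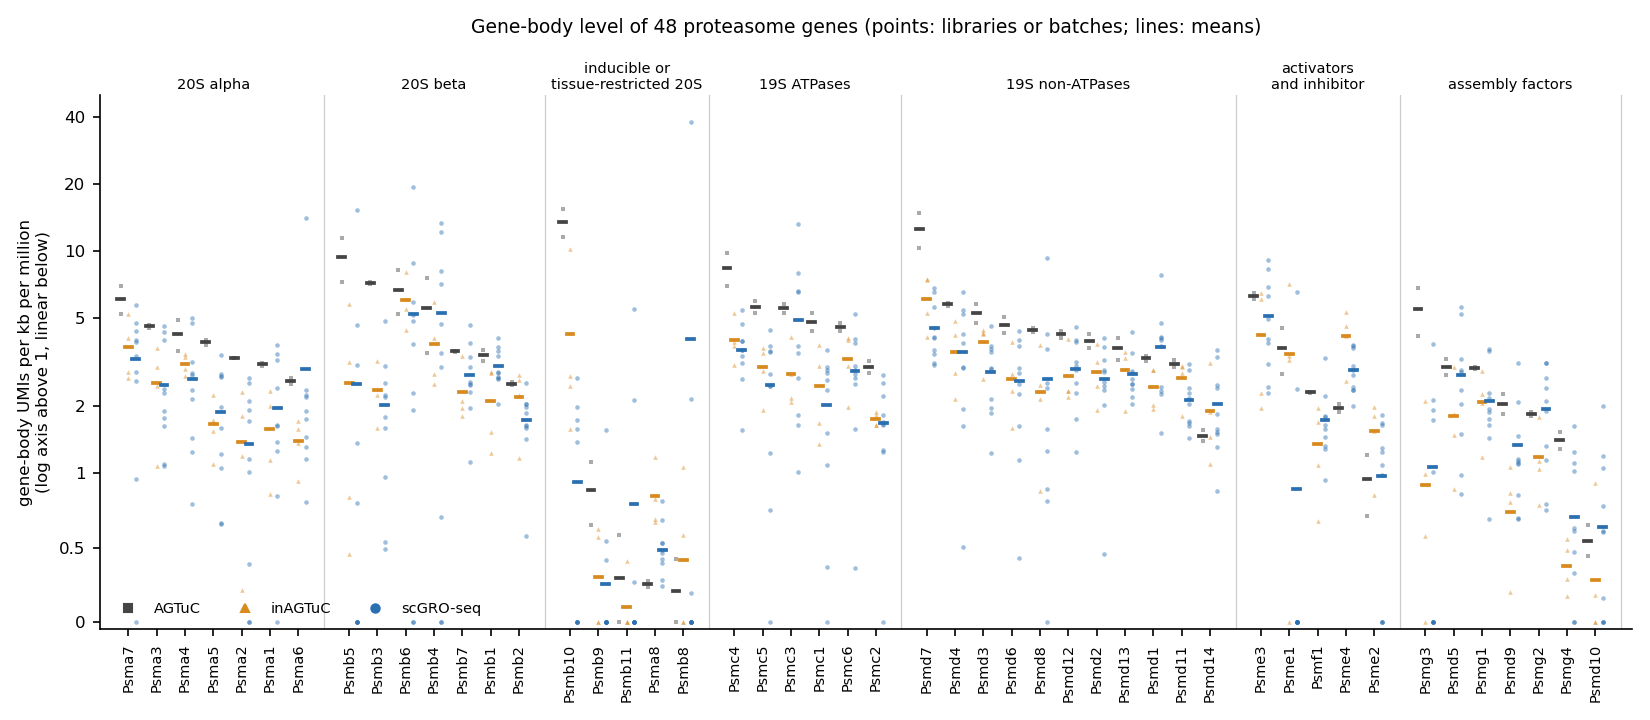
Gene-body level (gene-body UMIs per kb, scaled as in the text, log axis above 1 and linear below) of the 48 proteasome genes, ordered within each subunit group by the AGTuC mean. Small points are the 2 AGTuC libraries, 4 inAGTuC libraries or 10 scGRO-seq batches, and short lines are their means. Most core and 19S genes sit between 1 and 10, the AGTuC means of the inducible or tissue-restricted 20S genes other than Psmb10 sit below 1, and Psmb8 reaches 37.8 in 1 scGRO-seq batch.

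Within the group the median levels of the subunit classes differed, but their ranges in AGTuC overlapped and the classes were not compared by a test. The beta subunits had a median level of 5.53 in AGTuC, 2.37 in inAGTuC and 2.78 in scGRO-seq, the ATPases 5.17, 2.90 and 2.70, and the non-ATPases 4.22, 2.73 and 2.79. The alpha subunits had medians of 3.88, 1.66 and 2.51, and the activators and inhibitor 2.32, 3.44 and 1.74. The assembly factors were lower, at 2.05, 0.925 and 1.35, and the inducible or tissue-restricted subunits lowest, at 0.292, 0.414 and 0.791.

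Of the catalytic subunits, Psmb5 and Psmb6 were among the 6 highest members in AGTuC but have short bodies with few UMIs. Psmb5, the chymotrypsin-like subunit, had levels of 7.26 and 11.5 in the AGTuC libraries, between 0.460 and 5.75 in the inAGTuC libraries and between 0 and 15.2 (median 0.402) in the scGRO-seq batches. The AGTuC libraries lay above every inAGTuC library, whereas 1 scGRO-seq batch, Exp156, lay above both. Behind these levels are 94 body UMIs in AGTuC, 10 in inAGTuC and 22 in scGRO-seq. Psmb6, the caspase-like subunit, had 8.21 and 5.19 in AGTuC, 4.40 to 8.06 in inAGTuC and 0 to 19.4 (median 4.33) in scGRO-seq, so its groups overlapped throughout. It is covered by 30 body UMIs in AGTuC, 16 in inAGTuC and 29 in scGRO-seq. Psmb7, the trypsin-like subunit, has a body of 54.9 kb and 629, 258 and 758 body UMIs. Its level was 3.53 and 3.55 in AGTuC, 1.81 to 3.37 in inAGTuC and 1.12 to 4.64 (median 2.55) in scGRO-seq.

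The immunoproteasome subunits differed from each other. Psmb8 and Psmb9 had few body UMIs, 1 and 11 in AGTuC, 2 and 3 in inAGTuC and 76 and 8 in scGRO-seq. The mean AGTuC level of Psmb9, 0.886, still lay above the median of all protein-coding genes there, 0.831. Of the 76 UMIs of Psmb8, 74 came from batch Exp260b, where 72 lay at 1 stacked position. Psmb10 had the highest level of all 48 genes in AGTuC, 15.4 and 11.6 in the 2 libraries, from 69 body UMIs. It had 1.59, 2.48 and 2.74 in inAGTuC libraries 4, 1 and 2 and 10.2 in library 3, and 0 to 2.68 (median 0.694) in scGRO-seq. No scGRO-seq batch and no inAGTuC library reached the AGTuC levels. In AGTuC the 500 bp before the start of Psmb10 held 24 sense UMIs against 12 in the first 500 bp after it, and where those UMIs came from was not tested. The span of Psmb10 held 58 antisense beside 93 sense UMIs in AGTuC, 6 beside 15 in inAGTuC and 19 beside 20 in scGRO-seq. Over the 48 genes together AGTuC had 7.25 antisense per 100 sense UMIs. How far such signal enters the level of Psmb10 was not tested. Psmb11 had 2, 1 and 12 body UMIs, too few to order its levels. Psma8 had levels of 0.275 and 0.233 in AGTuC, 0.675 to 1.19 in inAGTuC and 0.240 to 0.812 (median 0.473) in scGRO-seq, on a body of 55.2 kb.

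At the other end of the scale Psmd7, a 19S lid subunit, was second in AGTuC with 10.3 and 14.8 and first in inAGTuC with 4.09 to 7.50, and had 3.08 to 6.84 (median 4.09) in scGRO-seq. In scGRO-seq the highest means were those of Psmb4, a structural beta subunit, at 5.27 ± 4.83 (SD, n = 10), Psmb6 at 5.22 ± 5.69 and Psme3, the nuclear activator PA28 gamma, at 5.12 ± 2.41. These 3 do not differ beyond their spread. The lowest means in scGRO-seq were those of Psmb9 at 0.253 ± 0.505, Psma8 at 0.484 ± 0.172 and Psmd10, the assembly chaperone gankyrin, at 0.641 ± 0.651. With stacked positions left out, Psmb8 at 0.379 lay below Psma8 (0.540) and Psmd10 (0.704). Psmd10 was also among the lowest in inAGTuC, with 0.280 ± 0.447 (n = 4).

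A far larger share of UMIs lay near the start of proteasome genes in AGTuC than in the assays of intact nuclei. These counts are of captured RNA, not of all polymerases. The paper attributes the weak capture of polymerases paused near the start in intact nuclei to the lack of strong detergent, which was not tested here. The promoter share, the UMIs in the first 500 bp of the gene as a percentage of those in the first 500 bp and the body, was 27.98% and 27.72% in the AGTuC libraries, summed over the 48 genes. It was 6.23%, 4.05%, 11.3% and 2.79% in inAGTuC libraries 1 to 4, and 2.12% to 11.2% (median 4.21%) in the scGRO-seq batches. Every inAGTuC library and every scGRO-seq batch lay below both AGTuC libraries. All protein-coding genes together gave 21.01% ± 1.23 (SD, n = 2), 3.31% ± 1.50 (n = 4) and 2.35% ± 0.75 (n = 10). In each of the 16 samples the share of the proteasome genes was above that of all protein-coding genes. Body UMIs are not scaled by length in this share, so it also depends on how long the bodies are, and lengths were not matched.

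**Figure D2:**
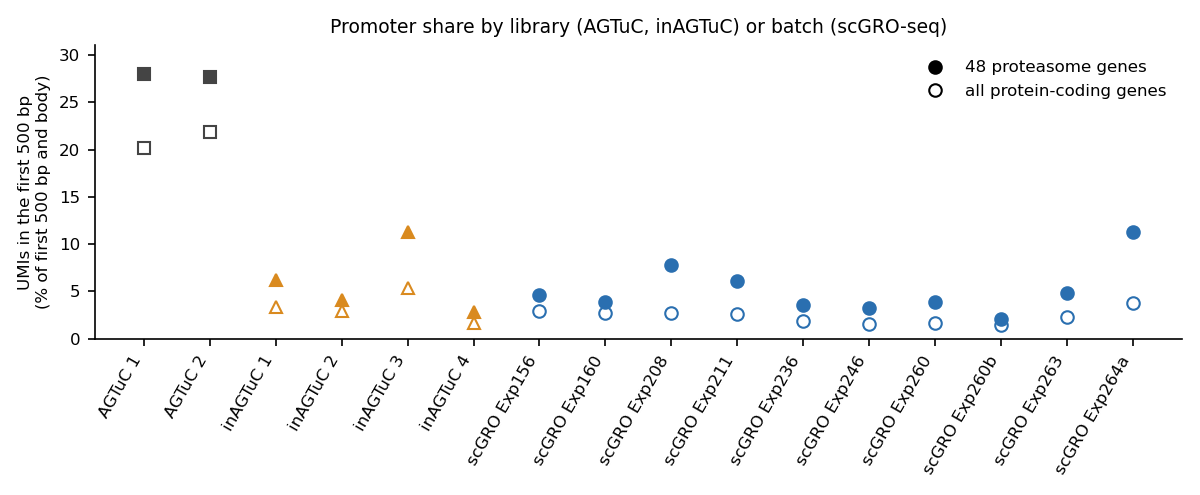
Promoter share (UMIs in the first 500 bp as a percentage of those in the first 500 bp and the body) in each AGTuC and inAGTuC library and each scGRO-seq batch. Filled symbols are the 48 proteasome genes summed and open symbols all protein-coding genes summed. Proteasome genes lie at 27.72% to 27.98% in AGTuC and at 2.12% to 11.3% in the other samples.

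The profile around the start showed the same difference in bins of 100 bp. In AGTuC the first 500 bp of the 48 genes held 3335 sense UMIs, 1607 of them in the first 100 bp, against 299 between 1000 and 1500 bp, a ratio of 11.2. In inAGTuC the counts were 211 against 117, a ratio of 1.803, and in scGRO-seq 488 against 235, a ratio of 2.08. Upstream of the starts, antisense RNA was plentiful in AGTuC, with 1221 antisense UMIs in the 500 bp before the start, 511 of them 100 to 200 bp before it, or 11.1 times the antisense count between 1000 and 1500 bp downstream. In inAGTuC the antisense count upstream was 84 (2.80 times) and in scGRO-seq 119 (1.27 times). These counts include neighbouring and second starts. Of the 110 AGTuC antisense UMIs between 1000 and 1500 bp, 65 lay at 1300 to 1400 bp. The 500 bp before the second start of Psmc2, 1.47 kb into its span, held 68. Before its first start, where an exon of Dnajc2 lies on the other strand, AGTuC had 76 antisense UMIs. Over whole spans, antisense UMIs per 100 sense UMIs on proteasome genes were 7.25 ± 0.28 in AGTuC, 40.04 ± 37.96 in inAGTuC and 24.7 ± 10.5 in scGRO-seq, against means of 18.6, 53.6 and 42.1 for all protein-coding genes. The inAGTuC means rest on the third library, without which they were 21.4 ± 8.5 (SD, n = 3) for proteasome genes, below scGRO-seq, and 34.6 for all genes.

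**Figure D3:**
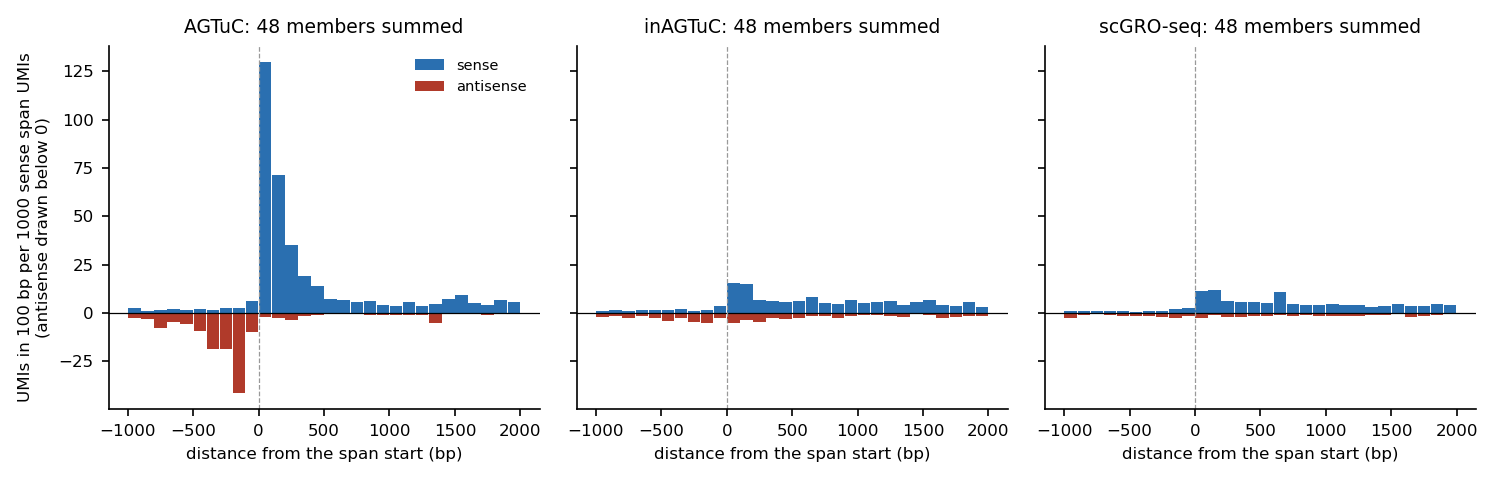
UMIs in bins of 100 bp around the start of the 48 proteasome genes, summed, per 1000 sense UMIs on their spans. Sense UMIs are drawn above 0 and antisense UMIs below 0, with the start at the dashed line. The peak after the start and the antisense peak before it are seen in AGTuC, where the first 100 bp hold 1607 UMIs, and not at that height in inAGTuC or scGRO-seq.

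Single genes ranged widely in promoter share within AGTuC. Among genes with at least 50 UMIs in the promoter and body, the highest were Psmb6 with 62.9% and 75% in the 2 libraries, Psmd8, a 19S lid subunit, with 67.5% and 67.7%, and Psmg1, an assembly chaperone of the alpha ring, with 65.6% and 63.3%. For Psmg1 another 47 sense UMIs lay in the 500 bp before the start. By class, the assembly factors had 53.6% of their UMIs in the first 500 bp, against 18.8% in the beta subunits, 22.9% in the alpha subunits, 25.6% in the activators and inhibitor, 26.3% in the non-ATPases, 27.9% in the ATPases and 31.4% in the inducible or tissue-restricted subunits. The lowest single genes were Psmc2, a 19S ATPase, with 1.14%, Psma6, an alpha subunit, with 1.39% and Psmb7 with 4.55%. Neither this ranking nor the class shares are scaled by body length.

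Psma6 and Psmc2 each have a second annotated start downstream. In AGTuC the first 500 bp after the downstream start of Psma6 (chr12:55398825) held 58 sense UMIs against 4 at the start of the span, and the 500 bp before it held 212 antisense UMIs against 0. For Psmc2 the start 1.47 kb into the span (chr5:21786747) held 45 sense UMIs against 2, but the antisense counts in the 500 bp before each were 68 against 76. In scGRO-seq the downstream starts held 23 against 2 and 15 against 4 sense UMIs. Their low promoter shares count the outermost annotated start, and the downstream start held more sense UMIs in all 3 assays.

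The promoter to body ratio was compared gene by gene between assays with limma, over all protein-coding genes with at least 50 UMIs and with p-values adjusted by the Benjamini-Hochberg method over all of them. Of the 45 proteasome genes tested in scGRO-seq against AGTuC (Psmb9, Psmb11 and Psmd10 had too few UMIs), 12 passed an adjusted p of 0.05, 11 of them lower in scGRO-seq, where 39.8% of all 13706 genes passed, 36.9% lower and 2.93% higher. The median log2 difference was -1.39 in the proteasome genes and -1.93 in all genes tested. Of 44 tested in inAGTuC against AGTuC, 14 were lower and 0 higher, against 50.6% of all genes passed, 48.2% lower and 2.32% higher. Their median was -1.98 against -2.17 in all genes tested. With a window of 250 bp Psma5, an alpha subunit with few UMIs in those 250 bp, turned from lower (-2.16, adjusted p = 0.047) to higher (2.54, adjusted p = 0.016), and in scGRO-seq against AGTuC it turned from -1.95 (adjusted p = 0.12) to 3.34 (adjusted p = 0.014). With a pseudocount of 2 in place of 0.5, 2 of 44 genes were called higher in inAGTuC against AGTuC, Psma6 and Psmc2, where 615 of 12623 genes were, and 2 of 45 in scGRO-seq against AGTuC, Psmc2 and Psmb10, where 579 of 13706 were. These comparisons share the AGTuC libraries. In neither did the share of proteasome genes passing exceed that of all genes at these settings, whereas with a pseudocount of 2 it was 22.2% against 21.3% in scGRO-seq against AGTuC.

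Psmd5, an assembly chaperone that holds 19S ATPases, had the smallest p in scGRO-seq against AGTuC. Its promoter share was 62.6% and 61.6% in AGTuC, and in the scGRO-seq batches 10 of its 269 promoter and body UMIs lay in the first 500 bp, or 3.72%. The log2 ratio fell by 4.38 (SE 1.02, adjusted p = 0.0025). Psme3 had 54.7% and 52.3% in AGTuC and 6.04% over the scGRO-seq batches, a log2 difference of -3.52 (SE 0.96, adjusted p = 0.0066). Psmg1 followed with 12.2% in scGRO-seq (-3.45, adjusted p = 0.0099) and Psmd7 with 48.5% in AGTuC and 6.67% in scGRO-seq (-3.36, adjusted p = 0.013). Psme4, which encodes the activator PA200, had 12.03% in AGTuC and 1.17% in scGRO-seq (-3.08, adjusted p = 0.015). In inAGTuC against AGTuC, Psme4 (0.737% in inAGTuC, log2 difference -4.31, SE 0.93, adjusted p = 8.6e-04), Psmg1 (5.26%, -4.24, adjusted p = 9.8e-04), Psmd8 (8.33%, -3.90, adjusted p = 0.0019), Psmd5 (8.20%, -4.23, adjusted p = 0.0023) and Psma7, an alpha subunit (7.50% against 56.6% in AGTuC, -3.55, adjusted p = 0.0032), led. In inAGTuC Psmd8 had 2 promoter UMIs of 24 in promoter and body, Psmg1 2 of 38 and Psma7 3 of 40. Psmc5 and Psme2, also called lower, had 36 and 12 in promoter and body. All of these reached the minimum of 50 UMIs only with those of AGTuC, where their promoter share is high. So did Psme2 in scGRO-seq against AGTuC, with 18 UMIs in scGRO-seq.

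Psmc2 was called higher in scGRO-seq (log2 difference 2.70, adjusted p = 0.039) on 4 promoter UMIs there and 2 in AGTuC. Because the log ratio with a pseudocount depends on depth, a quasi-binomial test of the promoter share, chosen after seeing the data, was run beside it. It called 34 of 45 proteasome genes lower and 0 higher in scGRO-seq against AGTuC, where 70.4% of all genes tested were called lower, and Psmc2 was not called (adjusted p = 0.51). In inAGTuC against AGTuC it called 21 of 44 lower, against 53.1% of all genes. When 1 AGTuC library is left out, the spread comes from the other assay alone and the remaining library is assumed to vary like it. With the log ratio 0 proteasome genes were then called in scGRO-seq against AGTuC, where 2.86% and 2.09% of all genes passed without AGTuC library 1 and 2, while the median difference of the proteasome genes was -1.59 and -1.54. In inAGTuC against AGTuC 5 and 4 were then called, against 18.3% and 15.4% of all genes. Without the third inAGTuC library 22 of 44 were lower, against 56.6% of all genes called, and without the fourth 9, against 43.96%. Between scGRO-seq and inAGTuC, 0 of 40 proteasome genes passed, as did 0% of 12757 genes, with limma. At an unadjusted p under 0.05 there were 376 genes, 0 of them proteasome genes, and the quasi-binomial test also called 0 of 40.

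Body levels were then compared, by limma voom on body UMIs over all protein-coding genes with at least 50 UMIs, scaled to their total. In scGRO-seq against AGTuC, 15 of the 43 proteasome genes tested passed, 2 higher and 13 lower, where 51.2% of all 12986 genes passed, 18% higher and 33.2% lower. The median log2 difference was -0.69 in the proteasome genes and -0.37 in all genes tested. Scaling by median of ratios moved the median of all genes to -0.04 and that of the proteasome genes to -0.35, with 2 higher and 7 lower, while over all genes the split of 2339 higher and 4311 lower became 3071 and 2790. By class, 3 of 7 alpha subunits, 2 of 7 beta subunits, 3 of 6 ATPases, 3 of 11 non-ATPases and 1 of 6 assembly factors were lower and none of these classes had a gene called higher.

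The genes called lower with the smallest p were Psmb10, Psmd7, Psmb3, Psmb5 and Psmc4. Since they were picked by p from the same samples, a lack of overlap between their groups adds no support. Psmb10 fell by 2.66 on the log2 scale (SE 0.36, adjusted p = 2.7e-05), from the levels given above, where its many antisense UMIs in AGTuC are given as well. Psmb10, Psmb5 and Psmg3, all called lower, had 11, 22 and 16 body UMIs in scGRO-seq. They reached the minimum number of UMIs only with those of AGTuC, where they are high. Psmd7 fell by 1.54 (SE 0.26, adjusted p = 1.8e-04), with all 10 batches below both AGTuC libraries. Psmb3, a structural beta subunit, had 7.22 and 7.13 in AGTuC and 0.493 to 4.82 (median 1.99) in scGRO-seq, again without overlap, and fell by 1.76 (SE 0.35, adjusted p = 5.7e-04). Psmb5 fell by 2.62 (SE 0.54, adjusted p = 7.8e-04), with the overlap of batch Exp156. Psmc4, an ATPase, had 9.75 and 6.95 in AGTuC and 1.56 to 5.44 (median 3.59) in scGRO-seq and fell by 1.28 (SE 0.31, adjusted p = 0.0025). Psmb5 (adjusted p = 0.082) and Psmc4 (adjusted p = 0.069) were not called with limma-trend. Without AGTuC library 2 Psmb10 and Psmb5 had too few UMIs to be tested, as had Psmb10 on introns alone. The others called lower were Psmg3, Psmc1, Psmd3, Psma3, Psmc5, Psma5, Psmd4 and Psma2, with log2 differences of -0.79 to -1.73.

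The 2 genes called higher in scGRO-seq were Psma8 and Psme4, which have bodies of 55.2 and 107.6 kb. Antisense UMIs on the span of Psme4 numbered 16 beside 798 sense UMIs in AGTuC, 216 beside 822 in inAGTuC and 478 beside 1723 in scGRO-seq. For Psma8 they were 11 beside 62, 27 beside 88 and 84 beside 175. How far background enters the levels of these genes was not tested. Psme4 had 1.89 and 2.05 in AGTuC and 2.01 to 3.78 (median 2.85) in scGRO-seq, and rose by 0.57 on the log2 scale (SE 0.22, adjusted p = 0.038). Psma8 rose by 1.15 (SE 0.36, adjusted p = 0.014), with levels under 1 in every sample of both assays. It had 44 body UMIs in AGTuC and 168 in scGRO-seq, where it is high, so it reached the minimum only with the latter. Batch Exp208 lay between the AGTuC libraries for Psma8, as did batch Exp160 for Psme4, and all other batches lay above both. With reads on exons left out, Psme4 was no longer called (adjusted p = 0.24), nor was it in inAGTuC against AGTuC (adjusted p = 0.053). Psme4 was also not called without batch Exp208, Exp236, Exp246 or Exp260b, and neither gene was called without either AGTuC library, with limma-trend in place of voom or with all scGRO-seq batches. With stacked positions left out both remained called and 8 genes were lower, 10 of 42 called in all, against 50.6% of all genes. The count of 15 became 7 without AGTuC library 1 (33.98% of all genes), 3 without AGTuC library 2 (24.6%) and 3 with limma-trend (19.4%), so the share over all genes fell as well. On introns alone 21 of 40 were called, 20 of them lower, against 53% of all genes. Without batch Exp260b 13 were called (48.1% of all genes).

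In inAGTuC against AGTuC, 11 of 39 proteasome genes passed, 2 higher and 9 lower, where 29% of all 11661 genes passed, 11.6% higher and 17.5% lower. The AGTuC libraries are those of the comparison above. The median log2 difference was -0.72 against -0.32 in all genes, or -0.44 against -0.03 with median-of-ratios scaling. Psmb3 had 1.60 to 3.19 in inAGTuC and fell by 1.70 (SE 0.34, adjusted p = 0.0078). Psma5, an alpha subunit, had 3.79 and 3.98 in AGTuC and 1.099 to 2.25 in inAGTuC and fell by 1.26 (SE 0.30, adjusted p = 0.014). Psmb5, with 10 body UMIs in inAGTuC, fell by 2.44 (SE 0.69, adjusted p = 0.026), a call lost with limma-trend (adjusted p = 0.083) and without inAGTuC library 4 (adjusted p = 0.077). Psmb5, Psmb3, Psmb10, Psmg4 and Psmd9, called lower, had 10, 36, 12, 11 and 33 body UMIs in inAGTuC. They reached the minimum of 50 only with those of AGTuC, where they are high. Psma8 rose by 1.73 (SE 0.36, adjusted p = 0.0089). It had 44 body UMIs in AGTuC and 85 in inAGTuC, where it is high, so it reached the minimum only with the latter. Psme4 had 2.61 to 5.31 in inAGTuC and rose by 1.03 (SE 0.30, adjusted p = 0.028), a call lost without inAGTuC library 1 and without library 2. In these 5 genes all 4 inAGTuC libraries lay on the same side of both AGTuC libraries. The genes were picked by smallest p from the same libraries, so this adds no support, and its share over all genes was not counted. The others called lower were Psmd7, Psmg4, Psmb10, Psmc4, Psmd9 and Psma6. The body of Psma6 includes its downstream start. The first 500 bp after that start held 58 UMIs in AGTuC, where the body held 283, and 6 in inAGTuC, where it held 89. Leaving out either AGTuC library ended all 11 calls, where 5.14% of all genes passed without library 1 and 0% without library 2, while the median of the proteasome genes was -0.78 and -0.62. Of all genes 3089 and 2429 then had an unadjusted p under 0.05, among them 7 and 6 proteasome genes. Without inAGTuC library 1 the count was 4 (19.7% of all genes), without library 2 it was 5 (25.4%), without library 3 it was 8 (29.8%) and without library 4 it was 9 (30.1%), 6 of them among the 11. The minimum of 50 UMIs left out Psmb4, Psmb6, Psmb8, Psmb9, Psmb11, Psmd10, Psme1, Psme2 and Psmg3.

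Between scGRO-seq and inAGTuC, which both used intact nuclei, limma voom called 0 of 38 proteasome genes, as it called 0% of 12427 genes. At an unadjusted p under 0.05 there were 608 genes, among them 1 proteasome gene, Psme4, at -0.46 (95% interval -0.88 to -0.04, adjusted p = 0.92), and limma-trend also called 0. The median was -0.01 in the proteasome genes and -0.11 in all genes. Library 4 of inAGTuC is a list deposited under both assays, and the labels do not tell which of them made it. Without that library 0 of 38 proteasome genes and 53 of 12122 genes passed. Exp208, the batch of the 10 with both assays, left 9 proteasome genes to test, of which 0 passed. Exp261 also holds both, as does Exp234, whose scGRO-seq plate had too few kept cells to be used. With batch as a block over the 5 samples of Exp208 and Exp261 0 of 22 passed, against 0.202% of all 7420 genes.

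Of 20 listed genes that act with the proteasome (regulators such as Nfe2l1, ubiquitin shuttles such as Ubqln1, the unfoldase Vcp and proteasome-bound deubiquitinases), 0 were higher and 9 lower in scGRO-seq against AGTuC, where 18% of all genes were higher and 33.2% lower. Nfe2l1 had a level of 11.9 ± 1.5 (SD, n = 2) in AGTuC and 5.28 ± 1.71 (n = 10) in scGRO-seq and fell by 1.30 on the log2 scale (adjusted p = 0.0014 with limma voom). Vcp had levels of 5.77 ± 0.0013 and 2.82 ± 1.19 and fell by 1.21 (adjusted p = 0.0017). In inAGTuC against AGTuC 0 of 19 were higher and 5 lower, against 11.6% and 17.5% of all genes. The median over the list was -0.48 and -0.54 in these comparisons, against -0.37 and -0.32 in all genes.

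Among the scGRO-seq batches, limma voom over 35 plates tested whether the body level differed between batches. Of 38 proteasome genes 7 passed, where 30.5% of 11075 genes passed. Psmb8 (F = 10.8, adjusted p = 7.7e-07) reached the minimum of 50 UMIs only through Exp260b, the batch where it is high, and could not be tested without it. The others were Psmd1, the largest base subunit of the 19S particle (F = 6.01, adjusted p = 3.1e-04), Psmd14, the lid deubiquitinase (F = 5.03, adjusted p = 0.0013), Psmc6, an ATPase (F = 4.11, adjusted p = 0.0051), Psma6 (F = 3.33, adjusted p = 0.017), Psmc3 and Psmd4. Psmd14 ran from 0.879 in Exp160 to 3.58 in Exp236, with a median of 1.72. Psmc6 ran from 0.364 in Exp263 to 5.19 in Exp156, with a median of 2.85.

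For Psmb8, Psma6 and Psmd1 much of the difference lay at single bases. A stacked position was defined, after the data had been seen, as 1 base with at least 20 UMIs in an assay, counted over all barcodes whether or not the cell was kept, that is not within 500 bp of an annotated start on that strand. In all there were 22856 such positions with 2629307 UMIs in scGRO-seq, 3958 with 237941 in inAGTuC and 556 with 17630 in AGTuC. In proteasome genes 12 positions in 6 genes were stacked in scGRO-seq, all of them in introns, with 26 to 342 UMIs over all barcodes and 16 to 330 in the kept cells, and AGTuC had at most 1 UMI at any of them. All further counts are of kept cells. The 41 bases from 30 before to 10 after the position are shown on the strand of the gene for 4 of them, with the A run after the position of Psmd1 or the letters TACAG before the positions of the others in capitals. The last 3 are shown because the same short letters recur at positions in different genes, and Psmd1 because its position held the most UMIs after that of Psma6.
Psmd1, position chr1:86087424: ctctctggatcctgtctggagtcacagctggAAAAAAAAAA
Psma6, position chr12:55408661: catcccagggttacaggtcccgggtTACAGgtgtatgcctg
Psmb8, position chr17:34198878: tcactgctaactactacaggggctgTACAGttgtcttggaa
Psmd5, position chr2:34854957: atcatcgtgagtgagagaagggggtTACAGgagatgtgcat

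At the Psma6 position 330 UMIs came from 198 cells, 322 of them in batch Exp260b, and made up 51.97% of all sense UMIs of the gene in scGRO-seq. At the Psmb8 position all 72 UMIs came from Exp260b, in 64 cells, 90% of those of the gene. The Psmd5 position held 52 UMIs, 47 in Exp260b, and Psma5 and Psmb1 had positions with 39 and 25 UMIs, 32 and 20 of them in Exp260b. The position in Psmd1 was different, with 229 UMIs in 211 cells over 6 batches, 109 of them in Exp236 and 84 in Exp260b, and with 30 UMIs in inAGTuC. It is 1 of 6 adjacent stacked bases, and held 0 UMIs in Exp156, where the bases 4, 3 and 2 before it (chr1:86087420 to chr1:86087422) held 8, 24 and 6. The middle one of these, chr1:86087421, held 57 UMIs over 9 batches. The letters TACAG, noticed after the sequences had been seen, stood in the 8 bases that end at the position in 6 of the 12 stacked positions, at least 1 in each of the 5 genes other than Psmd1. They stood at 24.6% of all stacked positions of scGRO-seq, 5.66% of those of inAGTuC, and 2.80%, 2.98% and 0.793% of the positions in proteasome genes with 1 UMI in scGRO-seq, inAGTuC and AGTuC. The paper states that 1 version of the barcoded DNA joined to the RNA carries the letters ACAGG after a T at its 5′ end. Why UMIs stacked at these positions, and whether those letters play a part, was not tested.

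**Figure D4:**
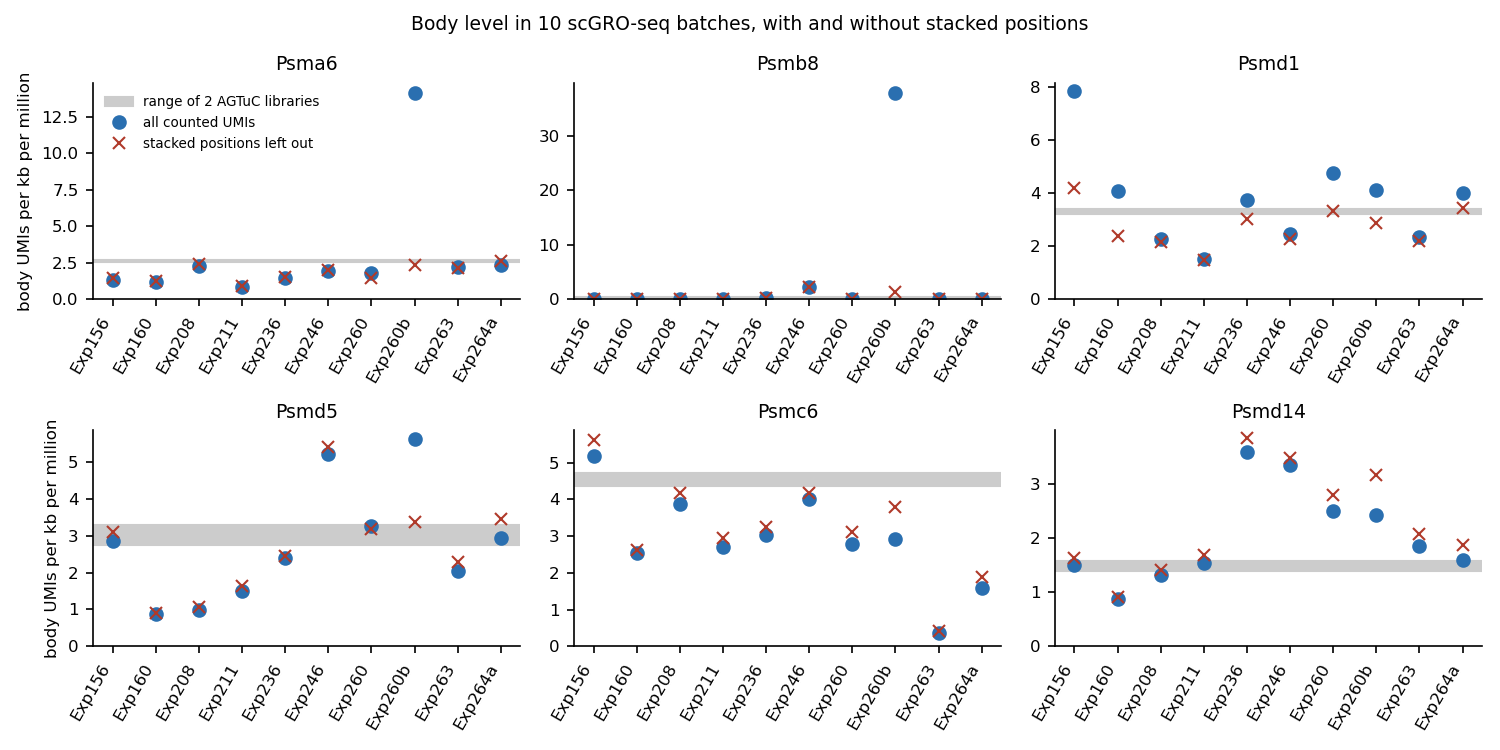
Body level (UMIs per kb, scaled as in the text) of 6 proteasome genes in the 10 scGRO-seq batches, with all counted UMIs (circles) and with stacked positions left out (crosses). The grey band is the range of the 2 AGTuC libraries. Psma6 drops from 14.1 to 2.32 and Psmb8 from 37.8 to 1.34 in Exp260b when stacked positions are left out, whereas Psmc6 and Psmd14 keep their spread.

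With stacked positions left out, Psma6 in Exp260b had a level of 2.32 in place of 14.1, and 1.795 ± 0.569 (SD, n = 10) over the batches in place of 2.94 ± 3.97. Psmb8 in Exp260b had 1.34 in place of 37.8. Psmd1 in Exp156 had 4.18 in place of 7.82. The test then called 3 proteasome genes, Psmd14 (adjusted p = 6.9e-04), Psmc6 (adjusted p = 0.0048) and Psmc3 (adjusted p = 0.020). Of all genes 25.2% passed. Psmd1 (adjusted p = 0.071) and Psma6 (adjusted p = 0.52) no longer passed, nor did Psmd4 (adjusted p = 0.069), which has no stacked position, and Psmb8 had too few UMIs to be tested. Without batch Exp260b 3 genes were called, Psmd1, Psmd14 and Psmc6, against 22.6% of all genes. Without Exp236 3 of the 27 left to test were called, Psmb8, Psmd1 and Psmc6, against 17.1% of all genes, and Psmd14 was not (adjusted p = 0.082). Without Exp263 Psmc6 was not called (adjusted p = 0.52), nor was it with all deposited reads (adjusted p = 0.27). Psmc3 was not called without Exp156 (adjusted p = 0.26), Exp264a (adjusted p = 0.065) or Exp260b (adjusted p = 0.053), and without Exp236 it was not tested. Psmd4 was also not called with median-of-ratios scaling (adjusted p = 0.066). Nor was it without Exp156, Exp160, Exp211, Exp236, Exp260b or Exp264a (adjusted p from 0.053 to 0.11).

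Most cells had a UMI on only a few proteasome genes. Of 2504 cells 94.9% (95% Wilson interval 94.0% to 95.7%) had a sense UMI on at least 1 of the 48 genes, with a median of 3 genes and a maximum of 22 per cell at a median depth of 3432 UMIs. Thinned to 1000 UMIs per cell the share was 63.8%. Across batches the share ran from 88.0% in Exp160 to 98.9% in Exp246, and thinned from 46.8% in Exp160 to 85.1% in Exp156. Intervals cover counting error only.

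The genes seen in most cells were long ones. Psme4 had a sense UMI in 41.1% of cells (39.2% to 43.03%), Psmd1 in 36.5% (34.7% to 38.5%) and Psmd14 in 31.3% (29.5% to 33.2%). Antisense UMIs on the same spans, a measure of background and of transcription on the other strand, were in 14.1%, 8.59% and 10.5% of cells. Thinned to 1000 UMIs the sense shares were 13.1%, 11.8% and 8.93%. With stacked positions left out Psmd1 was in 27.4% of cells. Between batches Psme4 ran from 22.8% in Exp160 to 58.1% in Exp246, and Psmd14 from 9.78% in Exp160 to 49.4% in Exp236. Psmb7 was in 24.3% of cells, while the short genes Psmb5 and Psmb6 were in 1.28% and 2.196%. Psmb10 was in 0.799% of cells with sense and 0.679% with antisense UMIs, and Psmb9 in 0.399% and 0.240%, so neither stood clear of the antisense level. Psmb8 was in 2.84% of cells, or 0.319% with stacked positions left out, and Psma6 in 17.5%, or 10.1%.

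Proteasome genes were not seen together in the same cells more often than reads permuted within a library would place them. Pairs of the 48 genes with UMIs in the same cell, summed over cells, numbered 25008, against 25911.9 expected with the UMIs of each cell and of each gene kept, a ratio of 0.965. Over all pairs of protein-coding genes the ratio was 0.970. Between batches the ratio for proteasome genes ran from 0.769 in Exp160 to 1.02 in Exp246, with a mean of 0.948 ± 0.072 (SD, n = 10), against 0.955 ± 0.056 for all pairs, and it was above that of all pairs in 4 of 10 batches. The mean difference was -0.007 ± 0.037. Cells with no proteasome gene numbered 127 against 131.8 expected and cells with exactly 1 numbered 357 against 342.3. With stacked positions left out the ratio was 0.956 against 0.966, and under the other permutations, read filters and cell minimums tried it lay between 0.941 and 0.973. It was above that of all pairs with reads permuted over all cells (0.942 against 0.926) and without Exp236 (0.961 against 0.958). Since the genes were chosen with results of these data known, the ratio carries no p-value.

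**Figure D5:**
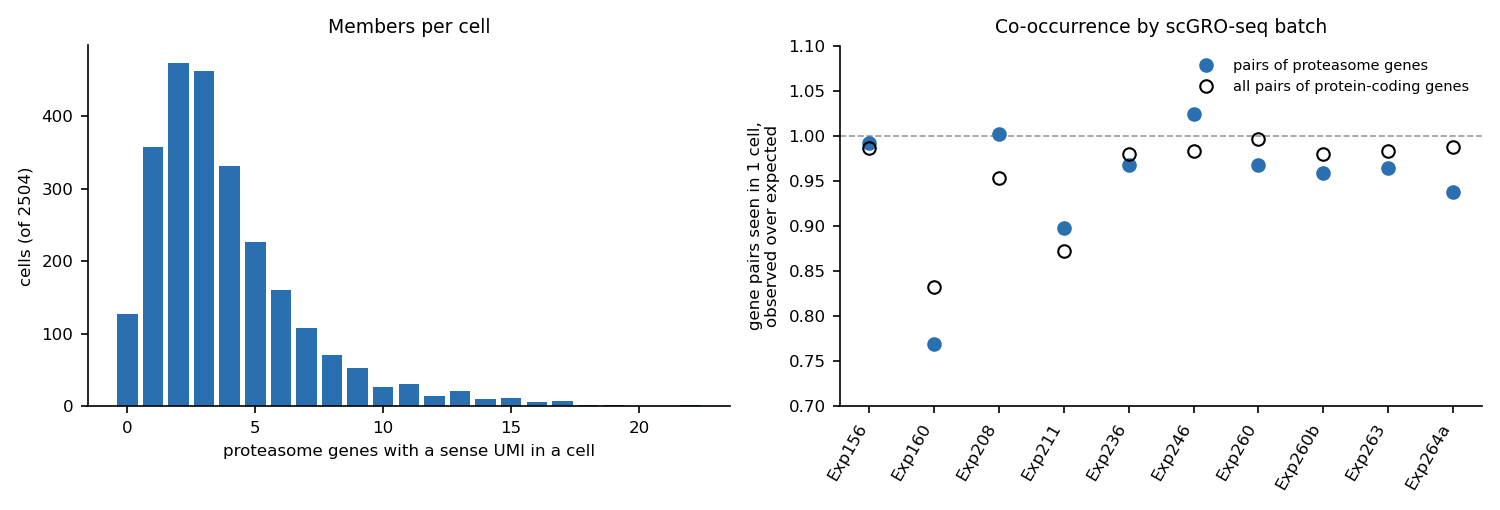
Left, number of cells by how many of the 48 proteasome genes had a sense UMI in the cell. Right, pairs of proteasome genes seen in 1 cell, observed over expected for reads permuted within libraries, in each scGRO-seq batch (filled), and the same over all pairs of protein-coding genes (open), with 1 as the dashed line. Both series lie between 0.769 and 1.02, and the proteasome pairs lie above all pairs in 4 of 10 batches.

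Single pairs lay on both sides of expectation. Of 1128 pairs 1056 were seen in at least 1 cell and the median pair in 10 cells. The pairs seen most often were Psmd1 with Psme4 in 444 cells (469.9 expected), Psme4 with Psmd14 in 424 (440.5 expected) and Psmd1 with Psmd14 in 360 (376.6 expected). Their ratios of 0.945, 0.963 and 0.956 lay near the 0.970 of all pairs of protein-coding genes, which is also below 1. Without stacked positions these were 353 (372.5 expected), 424 (437.1) and 289 (302.1). Of the 779 pairs with at least 5 cells expected, 305 were seen in more cells than expected. The same share over all pairs of protein-coding genes was not counted, so this is not read as a trait of proteasome genes.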

How the data were processed

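For each library the authors deposited a list of mapped reads, made on mm10 with cutadapt, Bowtie2 and UMI-tools according to the submitters' processing notes (versions are not given in the sources used here). Duplicates had been removed, so each entry adds 1 to a UMI count, with no normalization. The deposited score column holds mapping quality, which served only as a filter in 1 alternative. Each entry was placed at the 3′ end of the RNA, on the strand opposite to that of the read. Genes were RefSeq spans of GRCm38.

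A molecule that occurred in several libraries was not counted (29.3% of scGRO-seq, 16.8% of inAGTuC and 0.329% of AGTuC reads), which left 122299 to 1121179, 622112 to 1461204 and 2231583 to 4755258 reads per library. The Exp261_c16 list appears under scGRO-seq and inAGTuC and was used under inAGTuC alone, as inAGTuC library 4. The labels do not tell which of the assays made it. Of its sense UMIs on protein-coding genes 9.36% lay at stacked positions, against 0.436% to 4.02% in the other inAGTuC libraries. Cells had at least 1000 UMIs and 750 genes (enhancers were not counted as features) and plates at least 24 such cells. Replicates were libraries for AGTuC and inAGTuC and, for scGRO-seq, the summed kept cells of each of the 10 batches that the study's figure names. Fits used limma 3.58.1 in R 4.3.3 with lmFit and eBayes, a minimum of 50 UMIs, a pseudocount of 0.5 in the promoter to body ratio and a threshold of 0.05, and were tested on simulated data. Other steps used Python 3.11.15 with numpy 2.4.6, scipy 1.17.1, pandas 2.3.3 and pysam 0.24.0, and figures matplotlib 3.10.9. The co-occurrence expectation was computed exactly for reads permuted among the cells of a library. Alternatives changed the reads counted, the scaling, the minimum, the model, the promoter window, the pseudocount, the cells and the replicates.

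The members, the lists of related genes, markers and motifs, and the tests were chosen with earlier results of these data known. Stacked positions, the quasi-binomial test and the batch block were added after the files had been examined. Named genes are the catalytic, inducible and tissue-restricted subunits, the 3 highest and 3 lowest in level per assay and in AGTuC promoter share, up to 5 called per comparison with the smallest p, the 3 genes and 3 pairs seen in most cells, and up to 3 related genes called per comparison. 1 related gene that this rule names is not reported here. Psmb1, and the further called genes given by name, were named after their values were seen. Psmd1, Psma3, Psma4, Psme1 and Psmd10 overlap a gene on the opposite strand, which the strand of the reads separates.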

Additional observations from a re-analysis of the deposited data

Results flagged for a closer look

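Samples that lay far from the rest of their group by Dixon's criterion were looked for in 41 groups of 4 inAGTuC libraries or 10 scGRO-seq batches, and 6 were found. For independent groups of normally distributed values chance gives about 1 in 20 groups. Groups here can hold low counts and some share UMIs, so the 6 are not read as an excess over chance. In Exp260b, 28.2% of UMIs on proteasome genes lay at stacked positions, the highest of the batches (next 10.3%). Psma6 had its highest body level in Exp260b, 14.1 (next 2.36), and so had Psmb8, 37.8 (next 2.17), both falling to 2.32 and 1.34 with stacked positions left out. Psmd1 was highest in Exp156, at 7.82 (next 4.75), or 4.18 without stacked positions. Psmd8, with 62 body UMIs over the 10 batches, was also highest in Exp156, at 9.30 (next 4.21). The co-occurrence ratio of proteasome genes was lowest in Exp160, at 0.769 (next 0.897), where all pairs of protein-coding genes also had their lowest ratio, 0.832. What sets these samples apart was not tested.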

How the results depend on the processing

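Numbers of proteasome genes called changed with the libraries and the model. Without 1 of the 2 AGTuC libraries the spread comes from the other assay alone. For body level in scGRO-seq against AGTuC, 15 calls (51.2% of all genes) became 21 on introns alone (53%) and 9 with median-of-ratios scaling (45.1%). The count became 3 with limma-trend (19.4%), 7 with all scGRO-seq batches (34.9%) and 13 to 16 with 1 scGRO-seq batch left out (48.1% to 53.8%). In inAGTuC against AGTuC, 11 (29%) became 5 with median-of-ratios scaling (24.5%), 4 with limma-trend (21.4%) and 4 to 9 with 1 inAGTuC library left out (19.7% to 30.1%). For both comparisons the body-level fits without 1 AGTuC library are given above. For the promoter to body ratio, 12 calls (39.8% of all genes) in scGRO-seq against AGTuC became 34 with the quasi-binomial test (70.9%) and 0 to 14 with 1 replicate left out (2.09% to 44.99%), and 14 (50.6%) in inAGTuC against AGTuC became 4 to 22 (15.4% to 56.6%). Between batches, 7 calls (30.5% of all genes) became 12 with all deposited reads (37.3%), 3 with stacked positions left out (25.2%) and 3 to 8 with 1 batch left out (17.1% to 32.8%). The AGTuC promoter share of 27.85% became 22.33% with the first 250 bp, 28.90% with 500 bp either side of the start and 26.54% with a mapping quality of at least 20. The share of cells with a proteasome gene, 94.93%, became 63.82% thinned to 1000 UMIs, 87.42% for cells of at least 1000 UMIs alone, 97.03% with all deposited reads, 92.17% with the mapping quality filter, 93.93% with stacked positions left out and 93.92% to 95.48% with 1 batch left out. The causes of these changes were not tested. Between scGRO-seq and inAGTuC every alternative run called 0 proteasome genes, although without inAGTuC library 4 there were 53 calls among all genes for body level, and 15 with batch as a block. For the 20 combinations of a comparison between assays with 1 of its up to 5 called genes of smallest p, 306 of 336 values under alternatives kept direction and side of the threshold and 30 kept direction but no longer passed. The comparison between batches is not among them, and an alternative in which a gene had too few UMIs gives no value. Many alternatives leave out 1 replicate and share the other samples with the main fit, so these values are not independent. Psma5, not among these 20 for the promoter to body ratio, turned with the first 250 bp.

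No analysis paired by replicate number was possible because the replicate numbers of the 3 assays only count libraries. With batch as a block in Exp208 and Exp261, chosen after seeing the data, 0 of 22 and 0 of 23 proteasome genes were called in scGRO-seq against inAGTuC for body level and promoter to body ratio. Counting UMIs of 1 barcode within 50 bp once was not run for inAGTuC against AGTuC. Depth limits Psmb4, Psmb5, Psmb6, Psmb8, Psmb9, Psmb10, Psmb11, Psme1, Psme2, Psmd10, Psmg3 and Psmg4, which have under 20 body UMIs in inAGTuC. With 2 AGTuC libraries of 1 batch, no comparison with AGTuC can separate assay from batch.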
